A study of Homo sapiens with 6 samples.

Results

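The translation initiation and elongation factors are the cytosolic proteins that load ribosomes onto mRNA, find the start codon and carry the ribosome along the reading frame. Members were chosen by name alone: probe sets with exactly 1 gene symbol in the platform annotation, where that symbol begins with EIF1, EIF2, EIF3, EIF4, EIF5, EIF6 or EEF. The rule leaves out pseudogenes, Y-linked genes and a small number of named symbols, among them 1 of the eIF2 kinases, which was not analysed here. The rule gave 60 genes of 18132 and 199 probe sets of 44988 with 1 symbol. Another 9 genes of the family list, among them EIF3C, EIF4G3 and EIF4EBP3, had no probe set with 1 symbol of their own and were not analysed here.

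The cells are labelled TPC-1, a human papillary thyroid carcinoma line, grown in RPMI1640 with fetal bovine serum and given a lentivirus that expresses an shRNA. RNA was measured on Affymetrix arrays, 1 per sample. In 3 samples the shRNA is directed against FAM60A, now called SINHCAF, a subunit of the SIN3-HDAC corepressor, and in the other 3 it is a control shRNA. Every array thus comes from cells given a lentivirus, and no cells without one are among the arrays used here. The labels name neither the shRNA sequence nor the time after infection, and do not say whether the samples of a label were cultured separately. Any p-value therefore rests on how far these samples differ, which may be technical only.

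Eukaryotic initiation begins when eIF2 with GTP brings the initiator tRNA to the small ribosomal subunit, helped by eIF1, eIF1A, eIF3 and eIF5. The cap-binding complex of eIF4E, eIF4G and eIF4A recruits the mRNA, and eIF4E-binding proteins block this step when they are not phosphorylated. After each round eIF2 must be recharged by eIF2B, and kinases that phosphorylate the alpha subunit of eIF2 turn it into an inhibitor of eIF2B, which lowers general translation and favours ATF4. During elongation eEF1A delivers aminoacyl-tRNA and eEF2 moves the ribosome by a codon. Array signal is that of mRNA, so no value below is a protein level, a phosphorylation state or a rate of translation.

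The values are taken as log2 expression values, and each probe set is set relative to its median over the 6 arrays, so they show differences between arrays. A gene value is the mean of its probe sets. A coarse class of the log2 level before that centring (2 to 4, 4 to 8, or 8 to 16) could still be read from the rounding of the values. A log2 difference is the mean of the arrays labelled FAM60A shRNA minus that of the arrays labelled control shRNA, n = 3 per group throughout, and a gene is said to have risen or fallen at an adjusted p under 0.05 (limma, Benjamini-Hochberg over all 18132 genes).

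The targeted gene ran against its label. SINHCAF had values of -0.58, -0.66 and -0.68 in the arrays labelled control shRNA and 0.63, 0.57 and 0.60 in those labelled FAM60A shRNA, a log2 difference of 1.24 (SE 0.038; limma adjusted p = 1.08e-06), and in the exact two-sided permutation test p was 0.1, which is the lower limit for 3 against 3 arrays. Groups are therefore named by their labels only, and a direction below cannot be read as that of a SINHCAF loss. Of 12 measured thyroid differentiation genes 0 rose and 1, HHEX, fell (limma; 0 and 2 at an unadjusted p under 0.05), and the lowest level class held 21 of their 34 probe sets. This class also holds 16 of 17 control tags without a target. Only DIO1 had a probe set in the class of 8 to 16, and the means of the list ran from -0.056 to -0.040 in the arrays labelled FAM60A shRNA and from 0.025 to 0.058 in the others. Of 14 intestinal epithelial markers, measured because the extraction protocol names the colorectal line DLD1, 8 rose and 1 fell. Their means ran from 0.27 to 0.28 against -0.31 to -0.27. The class of 8 to 16 held 4 of their 23 probe sets, those of CDH17, CDX2 and KRT20, and the lowest class held 9. MUC2, PHGR1 and LGALS4, which rose, had 1 probe set each, in the lowest class. Of 8 leukocyte markers 2 rose and 0 fell (limma; also 2 and 0 at an unadjusted p under 0.05), with means from 0.0018 to 0.091 against -0.068 to -0.0048. The lowest level class held 14 of their 22 probe sets, and only CD68 had 1 in the class of 8 to 16. The difference between the 3′ and 5′ control probe sets, a measure of RNA integrity, was -0.029 for actin (exact permutation p = 0.3) and -0.012 for GAPDH (exact permutation p = 0.4) between the groups. The part of the cell markers in the results below was not tested, and in bulk RNA fewer cells of a type and less RNA per cell cannot be told apart.

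Most translation factors differed between the labels, more of them upwards than downwards. Of the 60 genes, 27 rose, 17 fell and 16 did not pass, so 73.3% were called. Of all genes 44.9% were called, 19.8% higher and 25% lower, and the factors' share in each direction was 45% and 28.3%. Their median log2 difference was 0.10, against -0.012 over all genes, and their median absolute log2 difference was 0.22 against 0.12. Translation factor mRNAs are abundant, and 127 of their 199 probe sets (63.8%) lay in the level class of 8 to 16, which holds 24.4% of all probe sets with 1 symbol. In that class alone 75.1% of 6610 genes were called, and of 50 factors measured there 26 rose and 16 fell, 84.0% in all. The share of calls is thus closer to that of other bright genes than to that of all genes. The direction differed more, since 52.0% of the factors in that class were higher and 32.0% lower, beside 33.5% and 41.5% of all genes in it. Counts for each group and list below are to be read beside these shares of all genes.

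**Figure D1:**
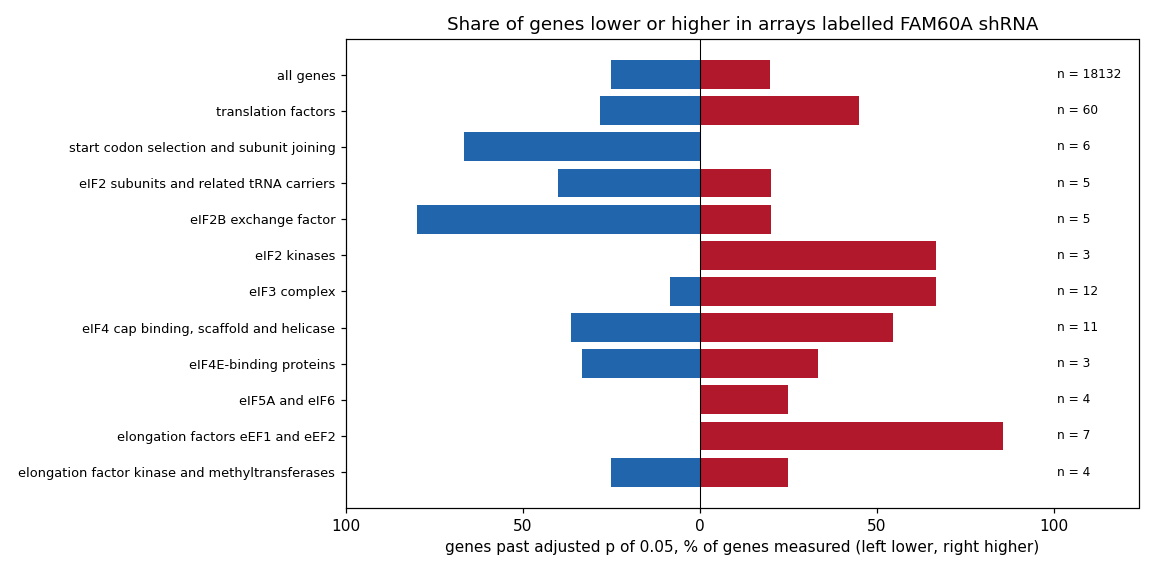
Share of genes past an adjusted p of 0.05 in percent of the genes measured, drawn to the left where they were lower and to the right where they were higher in the arrays labelled FAM60A shRNA, for all 18132 genes, the 60 translation factors and 10 factor groups. The bars of the elongation factors (6 of 7) and of eIF3 (8 of 12) lie mainly to the right, and those of eIF2B (4 of 5) and of the start codon group (4 of 6) mainly to the left.

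Changes were mostly small. A difference of at least 1.5-fold was seen in 8 of the 60 factors (13.3%), against 6.95% of all genes, and only EIF4EBP1 reached 2-fold. The 5 that were higher by this much were EIF4EBP1, EEF1A2, EIF4A1, EIF3J and EIF2S3, and the 3 that were lower were EIF2S1, EIF4E3 and EIF1B. In 50 factors there was no overlap between the labels, 33 higher and 17 lower, beside 53.2% of all genes. The median SE of a factor's difference was 0.035.

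**Figure D2:**
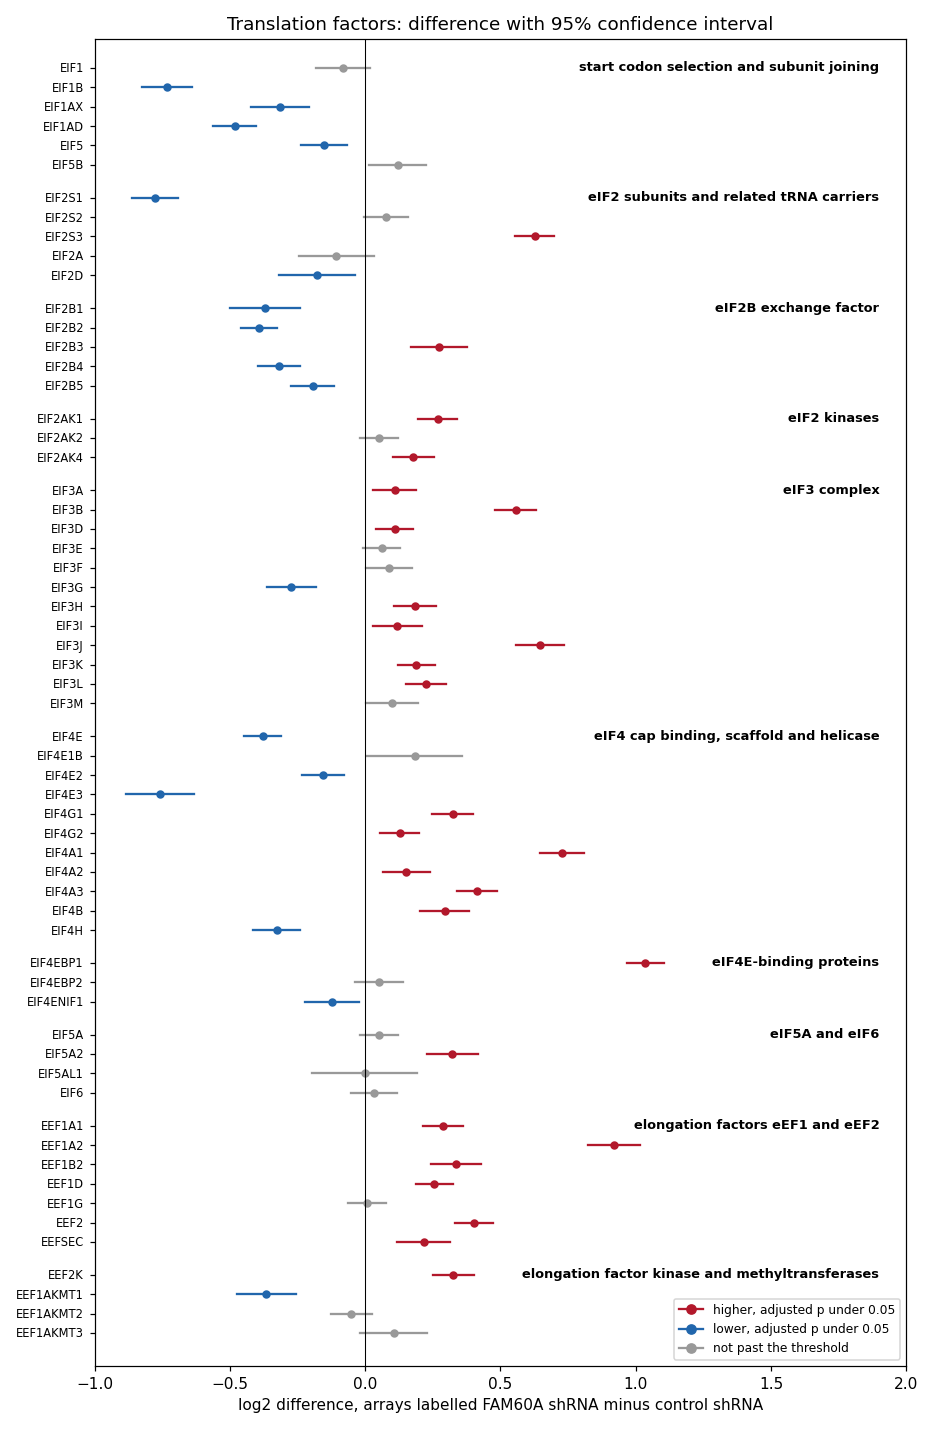
Log2 difference of each of the 60 translation factors (points) with its 95% confidence interval (lines), by factor group, coloured by whether the gene passed an adjusted p of 0.05. EIF4EBP1 at 1.04 is the highest and EIF2S1 at -0.78 the lowest.

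Genes grouped with the factors that fix the start codon and join the ribosomal subunits were lower or did not pass. Of 6 measured, 4 fell and 0 rose (limma; 4 and 1 at an unadjusted p under 0.05). The 4 include EIF1AD, which is a member by its name. EIF1B, a close paralogue of the start codon gatekeeper EIF1, fell most. Its values were 0.38, 0.36 and 0.32 in the arrays labelled control shRNA and -0.35, -0.34 and -0.44 in those labelled FAM60A shRNA. All arrays labelled FAM60A shRNA were below all others, a 1.66-fold lower signal with a 95% confidence interval of 1.56 to 1.77 (log2 difference -0.73, SE 0.039, limma adjusted p = 8.47e-06). EIF1AX, which encodes the eIF1A that works with eIF1 in scanning, had values of 0.27, 0.13 and 0.13 in the arrays labelled control shRNA and -0.11, -0.13 and -0.16 in those labelled FAM60A shRNA. It fell by 0.31 on the log2 scale without overlap (SE 0.045, limma adjusted p = 9.61e-04). EIF1AD, named for its eIF1A-like domain, had 0.23, 0.22 and 0.27 with the control label and -0.24, -0.28 and -0.20 with the FAM60A label. It fell by 0.48 on the log2 scale (SE 0.034, limma adjusted p = 2.82e-05), and its 2 probe sets differed in size, at -0.76 and -0.21.

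EIF1 itself, which holds the scanning ribosome open until the start codon is reached, differed by only -0.082 and was not called (limma adjusted p = 0.17). The log2 value of EIF1 minus that of EIF1B in the same array was -0.28, -0.33 and -0.32 with the control label and 0.35, 0.32 and 0.35 with the FAM60A label. The shift between the paralogues was 0.65 with no overlap (exact permutation p = 0.1, the smallest possible). EIF5, which makes eIF2 hydrolyse its GTP, fell by 0.15 on the log2 scale (limma adjusted p = 0.011). Its 7 probe sets ran from -0.36 to 0.19, of which 4 passed, all lower, and without those ending in x_at or s_at it was at -0.061 and did not pass (limma adjusted p = 0.43). EIF5B, the GTPase that joins the subunits, had 0.12 and did not pass (limma adjusted p = 0.065), but it was called higher under 6 of 16 other settings, among them quantile normalization and cyclic loess.

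The 3 subunits of eIF2 did not move together, as alpha fell, gamma rose and beta was not called. EIF2S1, the alpha subunit on which the eIF2 kinases act, had values of 0.45, 0.37 and 0.37 with the control label and -0.37, -0.37 and -0.40 with the FAM60A label. The arrays labelled FAM60A shRNA all lay below the others, with a signal 1.71-fold lower (95% confidence interval 1.61 to 1.82; log2 difference -0.78, SE 0.036, limma adjusted p = 4.91e-06). All 5 of its probe sets passed and were lower, but the 2 in the class of 8 to 16 were at -0.25 and -0.29 and the 3 in that of 4 to 8 between -1.32 and -0.71, so that the bright probe sets alone give -0.27.

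EIF2S3, the gamma subunit that binds GTP and the initiator tRNA, went the other way. Its values were -0.30, -0.31 and -0.35 with the control label and 0.29, 0.31 and 0.32 with the FAM60A label. The groups were apart and the signal 1.54-fold higher (95% confidence interval 1.47 to 1.62; log2 difference 0.63, SE 0.030, limma adjusted p = 5.41e-06), and its 4 probe sets lay close together, from 0.61 to 0.65. Gamma minus alpha in the same array was -0.75, -0.68 and -0.71 with the control label and 0.66, 0.68 and 0.72 with the FAM60A label, a shift of 1.40 between the 2 subunit mRNAs (exact permutation p = 0.1, the smallest possible). This pair was singled out after its values were seen.

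The beta subunit gene EIF2S2 had 0.0019, -0.041 and 0.017 with the control label and 0.072, 0.10 and 0.034 with the FAM60A label. Its difference of 0.077 did not pass (limma adjusted p = 0.11), and its 3 probe sets disagreed, at 0.44, 0.097 and -0.31, with the first and last past the threshold in opposite directions. The last lies in the lowest level class, and without that class the gene was at 0.27 (limma adjusted p = 8.5e-04). EIF2D, a tRNA carrier outside eIF2 that acts mainly on recycled ribosomes, had 0.10, 0.025 and 0.12 with the control label and -0.19, -0.12 and 0.025 with the FAM60A label. These overlap, and its fall of 0.18 passed narrowly (limma adjusted p = 0.046). It lost its call under each of the 3 other normalizations and when any array except replicate 3 labelled FAM60A shRNA was left out, with differences from -0.21 to -0.13. Its probe set in the class of 8 to 16 was at -0.36 and passed on its own (limma adjusted p = 7.30e-06), while that in the class of 4 to 8 was at 0.0088. EIF2A, another factor outside eIF2, had -0.11 and did not pass (limma adjusted p = 0.19), whereas its probe set in the class of 8 to 16 stood at -0.20 and passed (limma adjusted p = 0.014).

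Of the 5 subunits of eIF2B, the exchange factor that reloads eIF2 with GTP, 4 fell and 1 rose. EIF2B1, the alpha subunit that senses phosphorylated eIF2 together with the beta and delta subunits, had 0.20, 0.17 and 0.11 with the control label and -0.10, -0.30 and -0.23 with the FAM60A label, a log2 difference of -0.37 (SE 0.055, limma adjusted p = 0.0011). EIF2B2, the beta subunit, had 0.19, 0.19 and 0.19 with the control label and -0.21, -0.20 and -0.20 with the FAM60A label, the tightest values of the complex, and a difference of -0.39 (SE 0.028, limma adjusted p = 2.97e-05). EIF2B4, the delta subunit, had 0.17, 0.14 and 0.14 with the control label and -0.13, -0.16 and -0.20 with the FAM60A label and a difference of -0.32 (SE 0.032, limma adjusted p = 1.63e-04). These 3 regulatory subunits thus fell by similar amounts.

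The catalytic pair of eIF2B split. EIF2B5, the epsilon subunit that carries the exchange activity, had 0.068, 0.076 and 0.13 with the control label and -0.068, -0.11 and -0.13 with the FAM60A label and fell by 0.19 on the log2 scale (SE 0.034, limma adjusted p = 0.0026). EIF2B3, its gamma partner, had -0.21, -0.12 and -0.085 with the control label and 0.085, 0.16 and 0.15 with the FAM60A label and rose by 0.27 (SE 0.043, limma adjusted p = 0.0016). For each of the 5 subunits the arrays of the labels did not overlap, and each has at least 1 probe set in the class of 8 to 16. EIF2B3 and EIF2B5 rest on 1 probe set each.

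Of the 3 eIF2 kinases that the rule keeps, 2 rose and 0 fell (limma; also 2 and 0 at an unadjusted p under 0.05). EIF2AK1, the haem-regulated kinase HRI, had -0.13, -0.12 and -0.14 with the control label and 0.15, 0.16 and 0.11 with the FAM60A label. It rose by 0.27 without overlap (SE 0.031, limma adjusted p = 2.93e-04), with 6 of its 8 probe sets past the threshold and all 8 between 0.059 and 0.53. EIF2AK4, the kinase GCN2 that senses uncharged tRNA, had -0.072, -0.11 and -0.055 with the control label and 0.087, 0.083 and 0.13 with the FAM60A label. Its rise of 0.18 (SE 0.032, limma adjusted p = 0.003) came from 1 of its 2 probe sets, at 0.33 against 0.025. Without probe sets ending in x_at or s_at only the latter is left, and the gene does not pass (limma adjusted p = 0.78). EIF2AK2, the double-stranded RNA sensor PKR, had -0.024, -0.0036 and -0.048 with the control label and 0.022, 0.040 and 0.019 with the FAM60A label. The labels did not overlap, but the difference of 0.052 did not pass (limma adjusted p = 0.21).

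**Figure D3:**
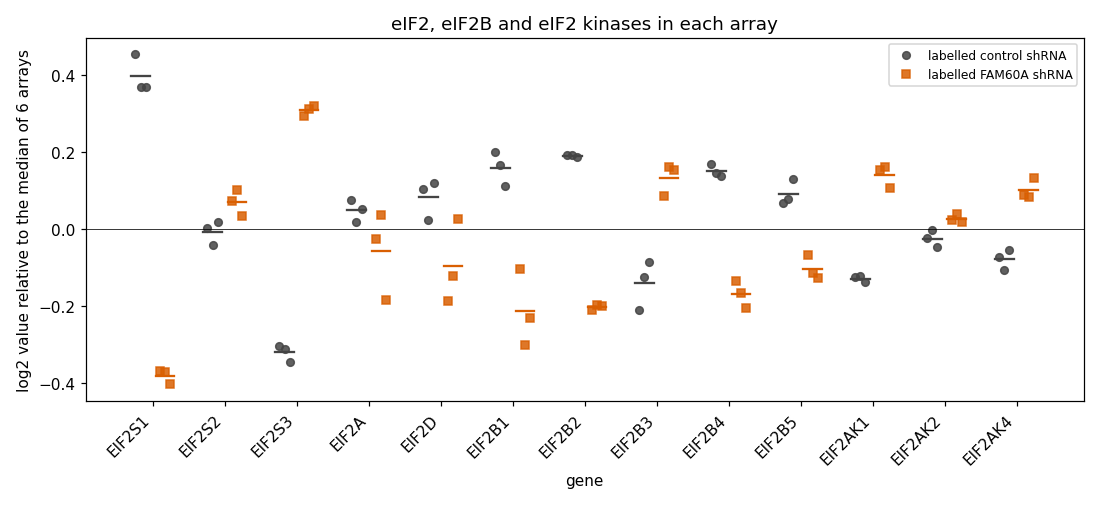
Log2 value of each array relative to the median of the 6 arrays for the genes of eIF2, eIF2B and the eIF2 kinases (points, with circles for arrays labelled control shRNA and squares for those labelled FAM60A shRNA; short lines are the mean of 3). EIF2S1 and EIF2S3 move in opposite directions, and the 4 falling eIF2B subunits stand apart from EIF2B3.

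Genes of the response to eIF2 phosphorylation mostly rose. Of 10 in a list of response, feedback and kinase regulator genes, 7 rose and 2 fell (70% and 20%), beside 19.8% and 25% of all genes. The median log2 difference was 0.43. ATF4, the transcription factor whose translation eIF2 phosphorylation favours, rose by 0.49 at the mRNA level. Its target TRIB3 (difference 0.77), the glutathione-degrading CHAC1 (0.81), the mTORC1 inhibitor SESN2 (0.71), DDIT3 (0.61), which encodes CHOP, and ATF5 (0.35) rose as well, as did GCN1 (0.37), the activator of GCN2. The 2 that fell were the regulatory subunits that direct a phosphatase to eIF2 alpha, PPP1R15A (-0.45, SE 0.032), also called GADD34, and PPP1R15B (-0.82, SE 0.035), also called CReP (limma adjusted p = 2.98e-05 and 3.67e-06). IMPACT, an inhibitor of GCN2 activation, was at -0.11 and did not pass (limma adjusted p = 0.19).

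Subunits of eIF3, the large scaffold that binds the small ribosomal subunit, rose as a rule, by little. The 12 measured comprise 8 that rose, 1 that fell and 3 without a call, with a median log2 difference of 0.11. EIF3J, the loosely bound subunit at the mRNA entry channel, had -0.30, -0.29 and -0.36 with the control label and 0.38, 0.31 and 0.30 with the FAM60A label. It was 1.56-fold higher (95% confidence interval 1.47 to 1.66; log2 difference 0.65, SE 0.038, limma adjusted p = 1.18e-05). EIF3B, the core subunit that contacts EIF3A, EIF3G and EIF3I, had -0.28, -0.28 and -0.25 with the control label and 0.26, 0.29 and 0.32 with the FAM60A label. It was 1.47-fold higher (95% confidence interval 1.40 to 1.55; log2 difference 0.56, SE 0.032, limma adjusted p = 1.10e-05), with 7 of 8 probe sets past the threshold and all 8 from 0.19 to 0.77. Both genes showed no overlap between the labels and stand well above the other 6 that rose.

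EIF3G, an RNA-binding subunit next to EIF3B and EIF3I, was the exception. Its values were 0.087, 0.15 and 0.20 with the control label and -0.11, -0.12 and -0.15 with the FAM60A label. It fell by 0.27 on the log2 scale (SE 0.038, limma adjusted p = 7.98e-04), and all 4 of its probe sets passed, from -0.39 to -0.20. The other rises were those of EIF3L (0.22), EIF3K (0.19) and EIF3H (0.18), followed by EIF3I (0.12), EIF3D (0.11), which can bind the cap itself, and EIF3A (0.11), the largest subunit. EIF3A and EIF3I lost their calls when any 1 array was left out except replicate 1 labelled control shRNA (log2 differences from 0.091 to 0.12 and from 0.093 to 0.13), and EIF3D without replicate 3 labelled FAM60A shRNA (log2 difference 0.10). EIF3M (0.098), EIF3F (0.088) and EIF3E (0.061) did not pass. In all 12 genes the 3 arrays of one label lay entirely to one side of the other 3, in 11 genes higher and in EIF3G lower. Such a lack of overlap was not particular to eIF3. It was seen in 53.2% of all genes, in 50 of the 60 factors and in 5 of 5 eIF2B subunits. Its share among genes of the class of 8 to 16 was not determined.

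The eIF4 factors went both ways. Among 11 eIF4 factors 6 rose and 4 fell, and 1 was not called. EIF4A1, the main DEAD-box helicase of the complex, had -0.41, -0.37 and -0.33 with the control label and 0.37, 0.32 and 0.38 with the FAM60A label. It was 1.65-fold higher (95% confidence interval 1.56 to 1.75; log2 difference 0.73, SE 0.035, limma adjusted p = 5.28e-06), with 4 of 4 probe sets past the threshold between 0.51 and 1.0, the lowest being the only one in the class of 8 to 16. EIF4A2, its close paralogue, had a difference of 0.15 (limma adjusted p = 0.012), and its 4 probe sets ran from -0.12 to 0.50. EIF4A1 minus EIF4A2 in the same array was -0.32, -0.27 and -0.30 with the control label and 0.26, 0.29 and 0.28 with the FAM60A label, a shift of 0.57 without overlap (exact permutation p = 0.1, the smallest possible). With only the class of 8 to 16, EIF4A1 was at 0.51 and EIF4A2 at 0.31 (limma adjusted p = 2.17e-05 and 1.69e-05). The paralogues thus lay closer together there, and the size of the shift depends on dimmer probe sets.

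The scaffold EIF4G1, which bridges eIF4E, eIF4A and eIF3, rose by 0.32 (SE 0.032, limma adjusted p = 1.42e-04). EIF4B, which stimulates the helicase, rose by 0.29, and EIF4G2, a scaffold that lacks the eIF4E site, by 0.13. EIF4A3, a helicase of the exon junction complex and not of initiation, had -0.18, -0.23 and -0.24 with the control label and 0.18, 0.21 and 0.19 with the FAM60A label and rose by 0.41 (SE 0.031, limma adjusted p = 3.78e-05). EIF4H, the other helicase stimulator, fell by 0.33 on the log2 scale (SE 0.036, limma adjusted p = 2.55e-04), against the direction of EIF4B.

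All 3 cap-binding genes that passed were lower. EIF4E, the cap-binding subunit, had 0.20, 0.20 and 0.19 with the control label and -0.17, -0.18 and -0.20 with the FAM60A label. The groups were far apart compared with the spread within them, and the signal was 1.30-fold lower (95% confidence interval 1.24 to 1.36; log2 difference -0.38, SE 0.029, limma adjusted p = 3.83e-05), with 6 of 7 probe sets past the threshold and all 7 from -0.57 to -0.14. EIF4E3, a divergent cap-binding relative, had 0.48, 0.36 and 0.31 with the control label and -0.33, -0.45 and -0.34 with the FAM60A label. It was 1.69-fold lower (95% confidence interval 1.55 to 1.85; log2 difference -0.76, SE 0.053, limma adjusted p = 2.84e-05), and all 5 of its probe sets passed, from -1.30 to -0.28, none of them in the class of 8 to 16. EIF4E2, which recruits repressors to the cap, fell by 0.16 on the log2 scale (limma adjusted p = 0.0063). EIF4E1B, an oocyte form, had 1 probe set, in the lowest level class, overlapping values and a difference of 0.18 that did not pass (limma adjusted p = 0.086).

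EIF4EBP1, which encodes the mTORC1-controlled inhibitor 4E-BP1 and is a known ATF4 target, rose most of all 60 factors. Its values were -0.53, -0.53 and -0.50 with the control label and 0.52, 0.52 and 0.51 with the FAM60A label. The spread within each label was a small part of the distance between them, a 2.05-fold higher signal (95% confidence interval 1.95 to 2.15; log2 difference 1.04, SE 0.029, limma adjusted p = 8.08e-07). Its 3 probe sets all lay in the class of 8 to 16, between 0.97 and 1.13. EIF4EBP1 minus EIF4E in the same array shifted by 1.41 between the labels, without overlap (exact permutation p = 0.1, the smallest possible), a pair singled out after its values were seen.

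Its paralogue EIF4EBP2 had -0.036, 0.00 and 0.0044 with the control label and 0.078, 0.062 and -0.022 with the FAM60A label and did not pass (difference 0.050, limma adjusted p = 0.35). That mean hides probe sets that moved apart, since 2 in the class of 8 to 16 fell, at -0.32 and -0.33, and 2 in the class of 4 to 8 rose, at 0.31 and 0.47, with the fifth at 0.12, so no direction is given for the gene. EIF4ENIF1, the eIF4E transporter 4E-T, had 0.020, 0.084 and 0.079 with the control label and -0.070, -0.12 and 0.0042 with the FAM60A label and fell by 0.12 on the log2 scale, just past the threshold (limma adjusted p = 0.049). It lost its call under 11 of the 15 settings that measured it, among them each of the 3 other normalizations, the probe set with the largest variance (limma adjusted p = 0.25) and the replicate number as a block, and its differences over the 15 ran from -0.16 to -0.094.

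**Figure D4:**
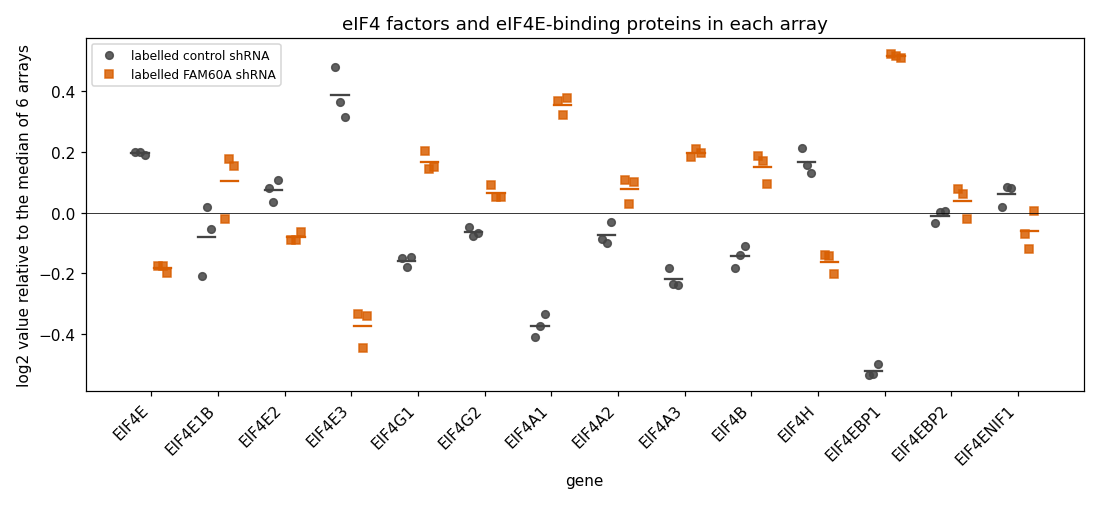
Log2 value of each array relative to the median of the 6 arrays for the eIF4 factors and the eIF4E-binding proteins (circles for arrays labelled control shRNA, squares for those labelled FAM60A shRNA, short lines for the mean of 3). EIF4E, EIF4E3 and EIF4H lie lower and EIF4A1 and EIF4EBP1 higher in the arrays labelled FAM60A shRNA.

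Other regulators of cap-dependent translation were as divided. Of 20 measured, 9 rose and 7 fell (45% and 35%), beside 19.8% and 25% of all genes. Their median log2 difference was 0.099. PDCD4, an inhibitor of eIF4A, rose by 1.10 (SE 0.081), GIGYF2, a partner of EIF4E2 in repression, by 0.57 and LARP1, which binds mRNAs with a terminal oligopyrimidine start, by 0.49. PAIP1, which links the poly(A)-binding protein to eIF4A, fell by 0.87 on the log2 scale (SE 0.049). The mTORC1 arm went both ways, with MTOR (-0.31), RPS6KB1 (-0.35) and RPS6KB2 (-0.34) lower and MLST8 (0.34) higher, while RPTOR (-0.037) did not pass. DENR (-0.37) and MCTS1 (-0.13), which together recycle the small subunit, both fell.

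Elongation factors mostly rose. Of 7 measured, 6 rose and 0 fell (limma; also 6 and 0 at an unadjusted p under 0.05), with a median log2 difference of 0.29. In the class of 8 to 16 alone 4 of 6 rose and 0 fell. EEF2, the translocase, had -0.22, -0.22 and -0.18 with the control label and 0.20, 0.20 and 0.19 with the FAM60A label. It rose without overlap, 1.32-fold (95% confidence interval 1.26 to 1.39; log2 difference 0.40, SE 0.029, limma adjusted p = 3.17e-05), and all 8 probe sets passed, from 0.22 to 0.55, each in the class of 8 to 16. EEF1B2, a subunit of the eEF1B complex that recharges eEF1A with GTP, had -0.12, -0.20 and -0.22 with the control label and 0.18, 0.18 and 0.12 with the FAM60A label and rose by 0.34 (SE 0.039, limma adjusted p = 3.19e-04). EEF1D, another exchange subunit, rose by 0.25, but fell short of the threshold without probe sets ending in x_at or s_at (0.077, limma adjusted p = 0.19). EEF1G, the structural subunit of eEF1B, had 0.0075 (SE 0.029), with overlapping values from -0.019 to 0.018.

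The eEF1A paralogues need more care. EEF1A2, the form typical of muscle and neurons, had -0.49, -0.41 and -0.47 with the control label and 0.52, 0.46 and 0.41 with the FAM60A label. It was 1.89-fold higher (95% confidence interval 1.77 to 2.02; log2 difference 0.92, SE 0.040, limma adjusted p = 3.94e-06), with both probe sets, in the class of 4 to 8, at 0.82 and 1.02. EEF1A1, the ubiquitous form and among the most abundant mRNAs of a cell, had -0.12, -0.16 and -0.16 with the control label and 0.17, 0.14 and 0.12 with the FAM60A label, a rise of 0.29 (SE 0.031, limma adjusted p = 2.31e-04). Its rise was carried by the 3 dimmer probe sets, at 0.41, 0.71 and 0.74, whereas the 3 in the class of 8 to 16 were at -0.18, -0.018 and 0.080. With those alone EEF1A1 had -0.039 and did not pass (limma adjusted p = 0.23), so its direction is uncertain. EEF1A1 minus EEF1A2 in the same array was 0.36, 0.25 and 0.31 with the control label and -0.35, -0.32 and -0.30 with the FAM60A label, a shift of -0.63 (exact permutation p = 0.1). Over the 6 gene pairs compared within arrays, each p was 0.1 after Benjamini-Hochberg adjustment as well. EEFSEC, which delivers selenocysteine-tRNA, rose by 0.22 (limma adjusted p = 0.0039).

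**Figure D5:**
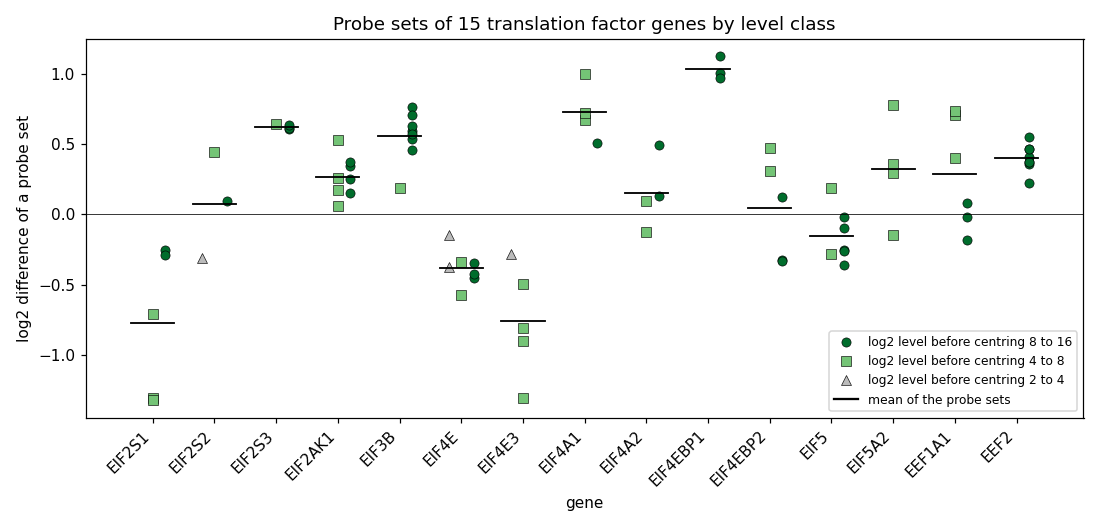
Log2 difference of each probe set of 15 translation factor genes, by the class of its log2 level before centring (circles 8 to 16, squares 4 to 8, triangles 2 to 4), with a line at the mean that stands for the gene. Probe sets of EIF2S3, EIF4EBP1 and EEF2 lie together, while those of EIF2S2, EIF4EBP2 and EEF1A1 lie on both sides of 0.

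These 3 genes, EIF2S2, EIF4EBP2 and EEF1A1, are the only factors of the 60 whose own probe sets passed in opposite directions. The enzymes that modify elongation factors were mixed, with 1 of 4 higher and 1 lower. EEF2K, the kinase that inhibits eEF2 and is itself restrained by mTORC1, had -0.17, -0.16 and -0.17 with the control label and 0.20, 0.15 and 0.12 with the FAM60A label and rose by 0.32 (SE 0.032, limma adjusted p = 1.40e-04). EEF1AKMT1, a lysine methyltransferase of eEF1A, had 0.16, 0.12 and 0.18 with the control label and -0.12, -0.27 and -0.25 with the FAM60A label and fell by 0.37 on the log2 scale (SE 0.046, limma adjusted p = 4.90e-04). Its relatives EEF1AKMT2 (-0.051) and EEF1AKMT3 (0.11) did not pass, the latter with overlapping values of -0.11, -0.12 and 0.0052 with the control label and 0.040, -0.047 and 0.10 with the FAM60A label.

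Among eIF5A and eIF6, 1 of 4 genes rose and 0 fell (limma; also 1 and 0 at an unadjusted p under 0.05). EIF5A, the hypusine-bearing factor that helps ribosomes past difficult peptide bonds, had -0.028, -0.022 and -0.0064 with the control label and 0.024, 0.018 and 0.057 with the FAM60A label. The values did not overlap, but the difference did not pass (0.052, SE 0.030, limma adjusted p = 0.21), with 6 of 6 probe sets between 0.031 and 0.092, none past the threshold. EIF5A2, its normally rarer paralogue, had -0.12, -0.21 and -0.14 with the control label and 0.19, 0.12 and 0.19 with the FAM60A label and rose by 0.32 (SE 0.040, limma adjusted p = 4.32e-04), although its 4 probe sets ran from -0.15 to 0.78. EIF5A minus EIF5A2 shifted by -0.27 between the labels, without overlap (exact permutation p = 0.1, the smallest possible). EIF6, which keeps the large subunit free, had overlapping values of -0.056, 0.011 and -0.014 with the control label and 0.054, 0.011 and -0.029 with the FAM60A label and a difference of 0.032. EIF5AL1, an EIF5A-like copy measured by 1 probe set of the lowest level class, had a difference of -0.0015. The enzymes that attach hypusine to eIF5A and diphthamide to eEF2 were mostly lower, with 5 of 8 down and 1 up, beside 25% and 19.8% of all genes. Those with the smallest p were DPH3 (-0.82), DHPS (-0.30), DPH6 (-0.43) and DNAJC24 (-0.44), while DPH5 (0.19) rose. For DPH6 and DNAJC24 the lowest level class held 2 of 3 probe sets each, and DNAJC24 had 0 in the class of 8 to 16.

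Termination factors split, with 2 of 6 higher and 2 lower, beside 19.8% and 25% of all genes and 33.5% and 41.5% of those in the class of 8 to 16. The release factors ETF1 (0.35) and GSPT1 (0.46) rose, and GSPT2 (-0.19) and the rescue factor HBS1L (-0.30) fell. The rise of GSPT1 came from its 3 probe sets below the class of 8 to 16, and in that class it was at -0.042 and did not pass (limma adjusted p = 0.26). The initiation and elongation factors of mitochondria, a separate bacterial-type set, had 1 higher and 1 lower of 8, with a median absolute log2 difference of 0.087. With the probe set of largest variance 4 of 8 were called. Of all genes 44.9% were called in the main fit and 46.4% in that setting. TSFM (-0.26) fell, but was at 0.0035 without its probe set of the lowest level class, and TUFM (0.094) lost its call without any 1 of the 6 arrays (0.080 to 0.10 on the log2 scale).

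Sequences at the transcription start were examined because many mRNAs of the translation apparatus begin with a C followed by a run of pyrimidines, the terminal oligopyrimidine start through which LARP1 and mTORC1 control them. RefSeq promoter windows of GRCh38.p14, 250 bases before to 50 after the annotated start, were found for 48 of the 60 factors. A start was counted when a C within 5 bases of the annotated start was followed without a gap by C or T, at least 5 bases in all, read on the strand of the gene. Of all 27305 windows 21.1% held one, and of the 48 factors 18 did (37.5%). By call, 11 of 20 that rose, 2 of 15 that fell and 5 of 13 that did not pass held one. Those that rose include EEF1A1, whose direction is uncertain. Those that fell include EIF2D, which lost its call under 8 of 16 other settings. In 11 of the 18 factors the run began at the annotated start itself, and of these genes 7 rose, EIF2D fell, and EIF2A, EIF3F and EIF3M did not pass. The stretch from 10 bases before to 20 bases after the start is shown for EEF2 and EEF1A1, for EIF3D, EIF3K and EIF3J, the eIF3 subunits that rose and hold such a start, for EIF2S3 and, for contrast, for EIF2D. The pyrimidine run is in capitals, and that of EIF3J begins 2 bases after the annotated start.
EEF2: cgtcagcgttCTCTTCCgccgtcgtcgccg
EEF1A1: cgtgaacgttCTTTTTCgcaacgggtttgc
EIF3D: cgcatgtttcCTCTTTTCCTggtttctcaa
EIF3K: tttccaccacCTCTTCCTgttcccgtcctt
EIF3J: ccgccgtgctaaCTCCTCgctagctctccc
EIF2S3: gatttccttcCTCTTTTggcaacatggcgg
EIF2D: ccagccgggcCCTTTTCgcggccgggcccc
These lie at chr19:3985444-3985473 (minus strand), chr6:73521013-73521042 (minus strand), chr22:36529147-36529176 (minus strand), chr19:38619178-38619207 (plus strand), chr15:44537137-44537166 (plus strand), chrX:24054946-24054975 (plus strand) and chr1:206612446-206612475 (minus strand) in that order. In eIF3 5 of 7 windows held such a start and in eIF2B 0 of 5. A match describes letters near an annotated start and not the start used in these cells.

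The E-box CACGTG, a palindrome that MYC and related factors bind, was the other element searched, on both strands. It was present in 7.43% of all windows and in 13 of 48 factor windows (27.1%), 8 of 20 that rose, 3 of 15 that fell and 2 of 13 that did not pass. Among the eIF4 factors it occurred in EIF4G1, EIF4B and EIF4A3, which rose, and in EIF4E and EIF4H, which fell. The stretch that holds it is shown for 4 of them with the element in capitals.
EIF4G1: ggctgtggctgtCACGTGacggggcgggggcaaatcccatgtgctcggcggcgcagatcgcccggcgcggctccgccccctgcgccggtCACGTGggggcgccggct
EIF4A3: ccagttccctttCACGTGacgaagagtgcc
EIF4B: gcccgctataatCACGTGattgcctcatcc
EIF4E: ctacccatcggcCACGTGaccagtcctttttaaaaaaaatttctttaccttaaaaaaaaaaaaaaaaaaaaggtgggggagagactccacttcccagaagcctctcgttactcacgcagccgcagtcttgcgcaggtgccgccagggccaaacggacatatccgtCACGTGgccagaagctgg
They lie at chr3:184314450-184314556 (plus strand), chr17:80147232-80147261 (minus strand), chr12:53006422-53006451 (plus strand) and chr4:98929188-98929370 (minus strand). The composite element TTGCATCA, which ATF4 binds with C/EBP factors, was searched on both strands as well and stood in 0.923% of all windows and in 0 of the 48, which says only that these letters are absent from these windows.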

How the data were processed

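RNA of the 6 samples was hybridised to Affymetrix arrays. The authors deposited log2 expression values made by RMA, per the submitters' processing notes. The program behind RMA, its version and the chip description used were not given in the sources here. The log base was not stated and was taken as 2. The deposited values are centred, with every probe set's median within 5e-07 of 0 and array medians from -0.0147 to 0.0101, so levels of different genes cannot be compared. The number of arrays limits the precision.

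Probe sets were named through GEO's platform annotation: 44988 had 1 gene symbol, 1832 several and 2569 none, and only the first were used. Their mean per gene was tested with limma 3.58.1 in R 4.3.3 (lmFit, eBayes, no covariate) over all genes, with Benjamini-Hochberg adjustment. Within-array differences between paralogues, SINHCAF and the RNA quality controls had two-sided exact permutation tests. The script was tested on simulated data of 18132 genes for this comparison: of 50 genes at each size, 46% were recovered at a log2 difference of 0.25, 84% at 0.5, 98% at 1 and 100% at 2, and 8 unchanged genes were called. A far smaller share of genes changed there than the 44.9% called in the data. The adjusted threshold is then stricter, so these figures check the script and do not give the sensitivity of the comparison. The level class was read from the step left by single-precision rounding before centring, a rule worked out after the data were seen.

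All factors are named by their difference. Values per array are given for SINHCAF, up to 3 genes of each group with the smallest p, and every eIF2 kinase that the rule keeps, eIF2B subunit and eIF4E-binding protein, as are 4 paralogue pairs and up to 4 genes of each pathway list with the smallest p. Other genes of the pathway and marker lists, and per-array values of other factors, were chosen after their values were seen. The members and lists themselves were chosen with earlier results of these data known. Promoter sequences are those of RefSeq on GRCh38.p14. Alternatives were other normalizations, other ways to join probe sets, filters on dim or cross-matching probe sets, each array left out, array weights and the replicate number as a block.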

Additional observations from a re-analysis of the deposited data

How the results depend on the processing

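Under 16 alternative settings the number of translation factors called ran from 40 to 47 of 58 or 60 measured, apart from 35 of 53 without probe sets ending in x_at or s_at and 42 of 50 with only probe sets of the level class of 8 to 16, a setting chosen after seeing the data. Leaving out 1 array gave 40 to 45. The split of 27 higher and 17 lower became 29 and 15 after quantile normalization, 31 and 15 after cyclic loess and 27 and 15 after median centring. Of the 44 called factors, 35 kept the call under each setting that measured them, 28 of them under all 16 and 7 under 14 or 15, 8 lost it under at least 1, and EEF1A1 reversed, while 8 of the 16 others gained one. The difference of SINHCAF stayed between 1.12 and 1.31.

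With only the class of 8 to 16, reversed values were -0.039 for EEF1A1, -0.18 for EIF4EBP2, -0.042 for GSPT1 and 0.0035 for TSFM, which was also 0.0035 without the lowest class. That setting called 1 of 2 eIF2 kinases, 0 of 2 of eIF5A and eIF6 (limma; also 0 at an unadjusted p under 0.05), 1 of 1 elongation factor modifiers and 4 of 6 mitochondrial factors. Without the lowest class 5 of 5 eIF2 subunits and carriers and 1 mitochondrial factor were called, and with the probe set of largest variance 5 and 4. Without probe sets ending in x_at or s_at, calls were 1 eIF2 kinase, 1 eIF4E-binding protein, 0 of 2 elongation factor modifiers (limma; 1 at an unadjusted p under 0.05) and 5 of 6 genes of the eIF2 phosphorylation response. The eIF4E-binding proteins had 1 call, not 2, under each of the 3 normalizations and the median of the probe sets, and 1 to 2 with an array left out, and the mitochondrial factors then had 1 to 3. The causes were not tested beyond fewer probe sets or arrays.

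The mean of its label was subtracted from each gene value, and these deviations were correlated between arrays of the 2 labels. For arrays with the same replicate number the correlations were 0.161, 0.0593 and 0.078, so the numbers were not taken as a pairing. The deviations of every array nevertheless correlated best with those of its own number. With the replicate block 44 factors were called, 28 higher and 16 lower, against 8170 of all genes, and 1 eIF4E-binding protein. The class of the level sets what can be seen: dim probe sets lie near control tags without a target.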
